A study of Rattus norvegicus with 16 samples.

Results

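Arc and 7 further genes that neurons and other cells switch on with activity and that act, for the most part, as brakes on signalling were described in the hippocampus of 16 male Wistar rats, each hybridised to its own 1-colour Agilent array. The 8 genes were Arc, Dusp5, Dusp6, Trib1, Gadd45b, Btg2, Ier2 and Rasl11b, out of 27889 features tested, of which 9588 carried a gene symbol. They were found by the RefSeq accession of their probe, with the brightest probe kept for each gene, and each of the 8 turned out to have 1 probe. The genes were chosen by their measured differences between iron and saline rats, so the levels below are a description of that pattern and no test is given for it.

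Iron rats received 1.0 µl of 100 mM ferric chloride in saline at pH 2.2 into the right amygdala after surgery at 5 weeks of age, and tissue was collected on day 5, day 15 or day 30 (Fe day 5, Fe day 15, Fe day 30, n = 4 each). The 4 control rats received 1.0 µl of saline at pH 2.2 by the same route and were collected on day 15 alone. Iron, age and interval after infusion thus cannot be told apart at Fe day 5 and Fe day 30. Per the series text the iron rats had recurrent seizures and the controls none, and the tissue was the right hippocampus, on the side of the infusion.

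Immediate early genes are transcribed within minutes of a burst of synaptic input, without any need for new protein, and their mRNAs are short-lived. Calcium entry and the Ras-ERK kinase cascade carry the signal to the nucleus, where the factors CREB and SRF act at DNA elements called CRE and CArG box. Part of the response is a brake on itself: Dusp5 and Dusp6 are phosphatases that switch ERK off in the nucleus and in the cytoplasm, and Btg2 promotes mRNA decay and restrains proliferation. Arc, whose mRNA travels into dendrites, drives the removal of AMPA receptors from synapses, and in the hippocampus its mRNA is widely used as a mark of recently active neurons.

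The processed signal at the 75th percentile lay between 553 and 924 on the 16 arrays, where 74.2% to 81.6% of probe spots exceeded background clearly. Each of the 8 genes was well above background on every one of the 16 arrays. Of 10 pan-neuronal markers 9 were measured, and these 9 were well above background on every array. Fe day 5 replicates 2 and 3 and Fe day 30 replicate 3 stood apart, with high levels of choroid plexus or meningeal genes, and the differences that moved most without them are also given in that form. The arrays lay on 7 slides, 4 of which held a control, and all 4 controls were in position 1 of their slide whereas no array of Fe day 15 or Fe day 30 was. Position and iron therefore cannot be told apart at those days.

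Promoter windows from RefSeq on the assembly GRCr8, 250 bases before to 50 bases after the gene start, were matched for 6 of the 8 genes, which left Arc and Trib1. Both strands were searched for the full CRE (TGACGTCA), the short CRE core (TGACG, which the full CRE contains), an AP-1 site (TGANTCA), an Egr site (GCGTGGGCG), an Ets site (CCGGAAGT) and the CArG box. The full CRE was found for 2 of 6, Btg2 and Ier2, against 1.83% of all 33469 windows and 2.94% of the 8259 windows of tested genes. A CArG box was found for Dusp5 alone, which held 2 side by side, against 1.64% of all windows and 1.14% of those of tested genes. The short core was found in 4 of 6 windows, against 21.2% of all and 30.3% of those of tested genes, and the AP-1, Egr and Ets letters in 0 of 6, against 7.33%, 0.544% and 3.81% of all. The 250 bases before the start are printed for the 3 genes with a full CRE or a CArG box and, beside them, for Dusp6, which held none of the letters. Capitals mark the matches, and a match is a description of the letters and not of a bound site.
Dusp5, chr1:262543524-262543773 (GRCr8, plus strand), with both CArG boxes and a short core: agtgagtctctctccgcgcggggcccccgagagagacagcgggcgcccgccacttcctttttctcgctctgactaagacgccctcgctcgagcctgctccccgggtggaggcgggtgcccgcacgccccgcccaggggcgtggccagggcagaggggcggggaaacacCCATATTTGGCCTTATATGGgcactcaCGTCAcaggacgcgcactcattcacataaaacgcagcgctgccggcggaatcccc
Dusp6, chr7:35979354-35979603 (GRCr8, plus strand): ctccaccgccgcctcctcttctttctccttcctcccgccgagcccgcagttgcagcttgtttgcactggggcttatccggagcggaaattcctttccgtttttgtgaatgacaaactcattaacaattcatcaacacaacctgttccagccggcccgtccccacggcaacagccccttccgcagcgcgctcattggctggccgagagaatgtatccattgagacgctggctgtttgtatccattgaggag
Btg2, chr13:48087691-48087940 (GRCr8, minus strand), with the CRE: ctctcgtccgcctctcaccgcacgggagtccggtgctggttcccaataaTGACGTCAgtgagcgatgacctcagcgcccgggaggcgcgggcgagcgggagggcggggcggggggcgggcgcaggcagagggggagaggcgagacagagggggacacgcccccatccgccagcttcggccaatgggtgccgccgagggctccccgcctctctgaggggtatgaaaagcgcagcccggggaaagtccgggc
Ier2, chr19:40399123-40399372 (GRCr8, plus strand), with the CRE: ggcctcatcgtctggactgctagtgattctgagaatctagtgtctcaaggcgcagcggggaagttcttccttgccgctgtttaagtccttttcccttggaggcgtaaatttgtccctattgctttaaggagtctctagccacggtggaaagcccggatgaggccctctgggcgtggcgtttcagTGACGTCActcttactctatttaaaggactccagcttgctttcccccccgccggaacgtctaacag

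Values below are log2 signals relative to the 75th percentile of the same array, in the order of replicates 1 to 4, so that a difference of 1 is 2-fold. Arc (NM_019361), the synaptic effector of the set, had 3.26, 2.36, 3.44 and 4.48 at Fe day 5, 3.87, 3.56, 4.30 and 2.77 at Fe day 15 and 3.12, 3.00, 2.68 and 4.28 at Fe day 30, against 4.77, 4.56, 4.31 and 4.26 in controls. In each Fe group 3 of 4 rats lay below every control and 1 rat lay at the level of the controls, namely replicate 4 at day 5, replicate 3 at day 15 and replicate 4 at day 30. These 3 rats near control level were all on slides that held a control, a point taken up with the slides below. The differences from control were -1.09 ± 0.43, -0.85 ± 0.43 and -1.21 ± 0.43 at days 5, 15 and 30 (log2, SE of the limma fit, n = 4 per group), or 2.13-, 1.80- and 2.31-fold lower. Without the 3 rats high in choroid plexus or meningeal genes, the day 5 and day 30 differences of Arc were -0.61 ± 0.46 and -1.01 ± 0.41. Without Fe day 15 replicate 4 the day 15 difference was -0.57. The Arc probe was printed in 10 spots, of which 7 to 10 were used on an array, and the SD among the spots of one array was 0.010 to 0.038. The spread between rats of one Fe group was 0.65 to 0.87 (SD), against 0.24 among the controls.

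**Figure D1:**
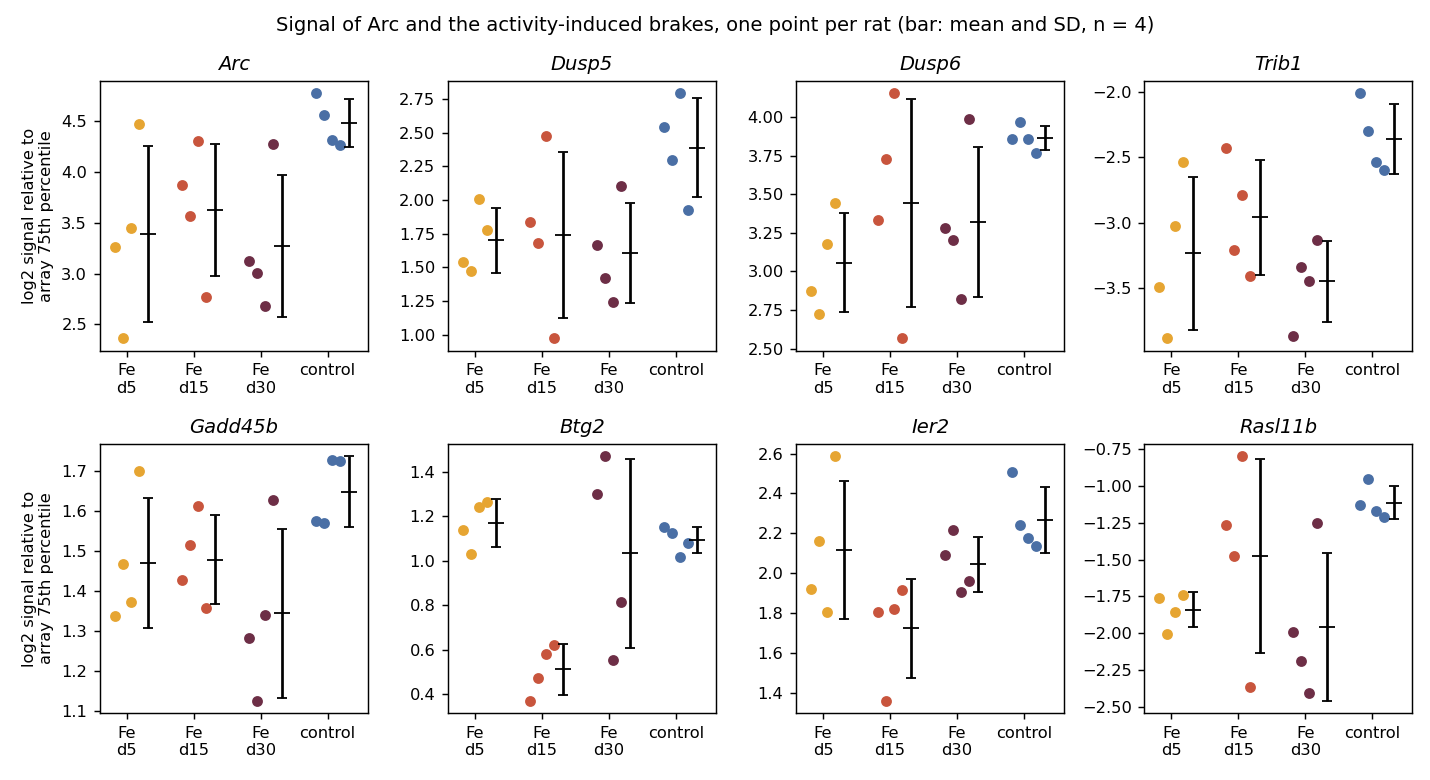
Log2 signal of each of the 8 genes relative to the 75th percentile of the array (vertical axis) in Fe day 5, Fe day 15, Fe day 30 and control rats, one point per rat with the group mean and SD beside it (n = 4). For Arc 1 rat of each Fe group sits at the level of the controls, and for Btg2 the 4 rats of Fe day 15, at 0.37 to 0.62, lie below all others of Fe day 5 and control.

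The ERK phosphatases are taken next. Dusp6 (NM_053883), which acts on ERK in the cytoplasm, had 2.87, 2.72, 3.18 and 3.44 at Fe day 5, 3.33, 3.73, 4.16 and 2.57 at Fe day 15 and 3.28, 3.20, 2.82 and 3.99 at Fe day 30, against 3.86, 3.97, 3.86 and 3.77 in controls. All 4 rats of Fe day 5 lay below the controls, while 1 rat of Fe day 15 and 1 of Fe day 30 exceeded the highest control. The differences were -0.81 ± 0.30, -0.42 ± 0.30 and -0.54 ± 0.30 (log2 ± SE), or 1.75-, 1.34- and 1.46-fold lower. The day 15 value was -0.13 without Fe day 15 replicate 4 and -0.66 without replicate 3, and the day 30 value was -0.38 ± 0.32 without the rats set apart above.

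Dusp5 (NM_133578), the nuclear counterpart and the gene with 2 CArG boxes above, had 1.54, 1.48, 2.01 and 1.78 at Fe day 5, 1.84, 1.68, 2.47 and 0.97 at Fe day 15 and 1.66, 1.42, 1.24 and 2.10 at Fe day 30, against 2.54, 2.30, 2.79 and 1.92 in controls. The groups overlapped at every day, with control replicate 4 the lowest control, and Fe day 15 replicate 3 also exceeded control replicate 2. The differences were -0.69 ± 0.28, -0.65 ± 0.28 and -0.78 ± 0.28 (log2 ± SE), or 1.61-, 1.57- and 1.72-fold lower. Without Fe day 15 replicate 4 the day 15 value was -0.39.

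Trib1 (NM_023985), a pseudokinase that hands C/EBP factors to a ubiquitin ligase and binds the ERK kinase MEK1, had -3.50, -3.89, -3.03 and -2.53 at Fe day 5, -2.43, -3.21, -2.79 and -3.41 at Fe day 15 and -3.87, -3.34, -3.45 and -3.13 at Fe day 30, against -2.01, -2.30, -2.54 and -2.60 in controls. The 4 rats of Fe day 30 all lay below the controls, and 1 rat of day 5 and 1 of day 15 lay within the controls' range. The differences were -0.88 ± 0.28, -0.60 ± 0.28 and -1.09 ± 0.28 (log2 ± SE). Without the 3 rats set apart the day 5 value was -0.65 ± 0.33. Its probe was dim, with a mean processed signal of 99.5, and with another background correction the day 30 difference was -0.64.

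Rasl11b (NM_001002830), a small GTPase of the Ras superfamily, had -1.76, -2.003, -1.86 and -1.74 at Fe day 5, -1.26, -1.48, -0.80 and -2.37 at Fe day 15 and -1.99, -2.19, -2.41 and -1.25 at Fe day 30, against -1.13, -0.95, -1.17 and -1.21 in controls. Fe day 5 was tight and wholly below the controls, Fe day 30 was wholly below them with replicate 4 only just so, and at Fe day 15 replicate 3 exceeded all controls. The differences were -0.73 ± 0.28, -0.36 ± 0.28 and -0.84 ± 0.28 (log2 ± SE), and the day 15 value was -0.07 without Fe day 15 replicate 4 and -0.59 without replicate 3.

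Gadd45b (NM_001008321), a stress sensor that acts on the p38 and JNK kinases and has been tied to DNA demethylation in active neurons of the mouse, had 1.34, 1.47, 1.37 and 1.70 at Fe day 5, 1.43, 1.52, 1.61 and 1.36 at Fe day 15 and 1.28, 1.13, 1.34 and 1.63 at Fe day 30, against 1.58, 1.57, 1.73 and 1.73 in controls. In each Fe group 3 rats lay below the controls and 1 lay among them, and these single rats were the same 3 animals as for Arc. The differences were -0.18 ± 0.11, -0.17 ± 0.11 and -0.30 ± 0.11 (log2 ± SE), or 1.13-, 1.13- and 1.24-fold lower.

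Btg2 and Ier2, the 2 genes with a full CRE above, had their lowest mean at day 15. Btg2 (NM_017259), an antiproliferative partner of the CCR4-NOT deadenylase, had 1.14, 1.03, 1.24 and 1.26 at Fe day 5, 0.37, 0.47, 0.58 and 0.62 at Fe day 15 and 1.30, 1.47, 0.55 and 0.81 at Fe day 30, against 1.15, 1.12, 1.02 and 1.08 in controls. The 4 rats of Fe day 15 lay below all 4 controls and all 4 rats of Fe day 5, and Fe day 30 split into 2 rats above and 2 below the controls. The differences were 0.07 ± 0.16, -0.58 ± 0.16 and -0.06 ± 0.16 (log2 ± SE), so that Btg2 was 1.49-fold lower at day 15.

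Ier2 (NM_001009541), a nuclear protein of the immediate early response, had 1.92, 2.16, 1.81 and 2.59 at Fe day 5, 1.80, 1.36, 1.82 and 1.92 at Fe day 15 and 2.09, 2.22, 1.91 and 1.96 at Fe day 30, against 2.51, 2.24, 2.18 and 2.14 in controls. Only Fe day 15 lay wholly below the controls. The differences were -0.15 ± 0.16, -0.54 ± 0.16 and -0.22 ± 0.16 (log2 ± SE), or 1.46-fold lower at day 15. The day 5 value was -0.01 ± 0.20 without the 3 rats set apart, and with 1 rat left out it ran from -0.30 without Fe day 5 replicate 4 to -0.04 without Fe day 5 replicate 3. It was -0.07 without control replicate 1 and -0.08 without Fe day 5 replicate 1, and the day 30 value was -0.14 without control replicate 1.

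**Figure D2:**
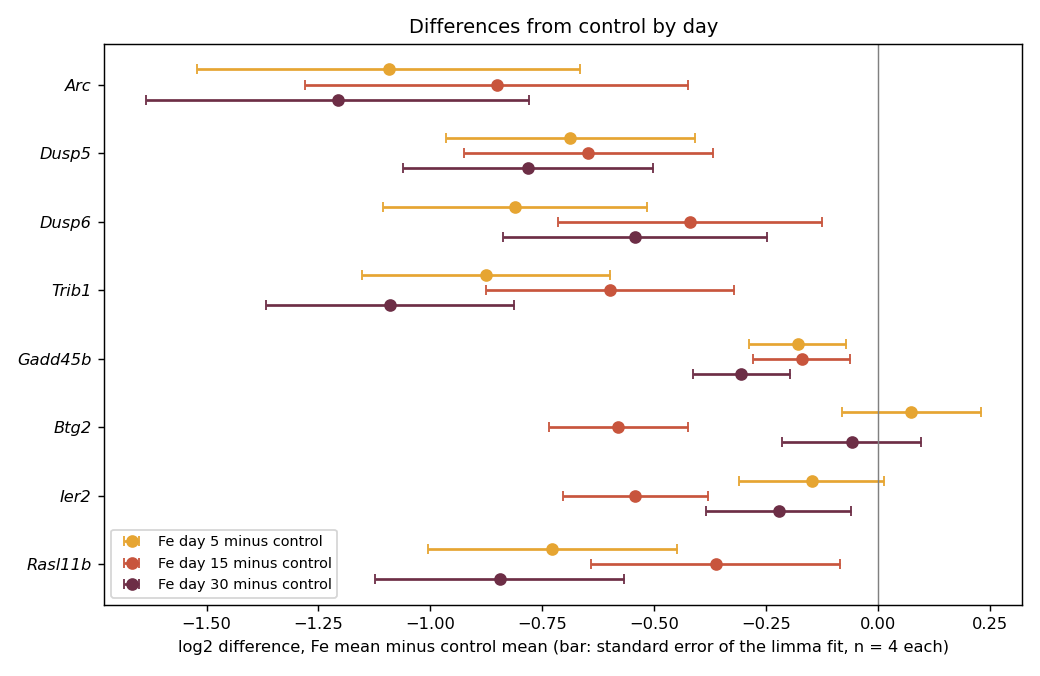
Difference of group means from control on the log2 scale (horizontal axis) for each gene at Fe day 5, Fe day 15 and Fe day 30, with the standard error of the limma fit (n = 4 per group). Trib1, Arc and Rasl11b lie farthest left at day 30, whereas Btg2 and Ier2 lie farthest left at day 15, at -0.58 and -0.54.

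The 3 Fe groups were set against the same 4 controls. Over the 8 genes the median difference was -0.71 at Fe day 5, -0.56 at Fe day 15 and -0.66 at Fe day 30, against -0.02, -0.00023 and -0.01 over all features tested. Of the 8 means 7, 8 and 8 were below control, as were 54.5%, 50.1% and 53.7% of all features. Groups did not overlap, with all Fe rats lower, for 2 genes at each day: Dusp6 and Rasl11b at day 5, where this held for 5.11% of all features, Btg2 and Ier2 at day 15 (5.80%), and Trib1 and Rasl11b at day 30 (3.68%). These contrasts served in choosing the genes, and nothing is read from the counts. Over all features limma called, at an adjusted p under 0.05, 0% at day 5 and at day 15 and 0.00717% (2 features) at day 30. At an unadjusted p under 0.05 in limma, 1768, 1805 and 1331 features were lower at days 5, 15 and 30, and 1116, 1426 and 853 were higher. Without these 3 rats set apart by choroid plexus or meningeal genes (Fe day 5 replicates 2 and 3, Fe day 30 replicate 3), 3 genes did not overlap at day 5 (Dusp5, Dusp6 and Rasl11b, where 2 Fe rats remained and the share of all features was 13.3%) and 2 at day 30 (Trib1 and Rasl11b, 4.84%). The median over the 8 genes was then -0.62 at day 5 and -0.52 at day 30, and these counts were added after the data were seen.

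The order of group means, from low to high, was Fe day 30, Fe day 5, Fe day 15 and control for Arc, Dusp5, Trib1, Gadd45b and Rasl11b. It was Fe day 5, Fe day 30, Fe day 15 and control for Dusp6. For Btg2 it was Fe day 15, Fe day 30, control and Fe day 5, and for Ier2 Fe day 15, Fe day 30, Fe day 5 and control. Any pair of Fe days overlapped for every gene except Btg2, whose 4 values at day 15 lay below those at day 5, a separation that 1.66% of all features showed in that direction and 2.04% in the other. Between day 30 and day 15 the shares of all features without overlap were 1.89% lower and 1.41% higher, and between day 30 and day 5 0.760% and 0.818%, with 0 of the 8 genes in each.

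Contrasts between the Fe days used the same arrays as the choice of genes. Their intervals and p values are therefore not independent of that choice. Btg2 differed by -0.65 (95% interval -0.99 to -0.32) at Fe day 15 against Fe day 5 and by 0.52 (0.19 to 0.85) at Fe day 30 against Fe day 15, with adjusted p of 0.27 and 0.65 over all features in limma. Ier2 differed by -0.39 (-0.74 to -0.05) and 0.32 (-0.03 to 0.67) in the same contrasts (adjusted p = 0.61 and 0.78 in limma). For Arc the intervals of Fe day 15 against Fe day 5 and of Fe day 30 against Fe day 15 ran from -0.68 to 1.16 and from -1.27 to 0.56, so that a difference of 2-fold between days was not excluded by either. At Fe day 30 against Fe day 5 the differences of the 8 genes ran from -0.21 for Trib1 to 0.27 for Dusp6. In the 3 contrasts between Fe days limma called 0 of the 8 genes and 0% of all features at an adjusted p under 0.05. At an unadjusted p under 0.05 it had 879 features lower and 1125 higher at day 15 against day 5, 1013 and 789 at day 30 against day 15, and 432 and 405 at day 30 against day 5. Of the 8 genes 2, 1 and 0 were among them.

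Slides gave a further view, since each compares rats hybridised together. On every slide with a control, the control was in position 1 and the Fe arrays were not. Position and iron therefore cannot be told apart within these slides, at day 5 as well. At day 5 only replicate 4 shared a slide with a control, so the day 5 values with the block rest on it and on slides shared with other Fe groups. With slide as a block, the day 5, 15 and 30 differences from control were -0.47 ± 0.45, -0.51 ± 0.38 and -0.62 ± 0.42 for Arc (log2 ± SE). They were -0.56 ± 0.20, -0.35 ± 0.17 and -0.79 ± 0.19 for Trib1 and -0.20 ± 0.15, -0.57 ± 0.13 and -0.18 ± 0.14 for Btg2. For Dusp6 they were -0.36 ± 0.30, -0.21 ± 0.26 and -0.28 ± 0.28, for Rasl11b -0.29 ± 0.35, -0.23 ± 0.30 and -0.61 ± 0.32, and for Dusp5 -0.40 ± 0.35, -0.48 ± 0.30 and -0.67 ± 0.33. For Gadd45b they were 0.03 ± 0.09, -0.11 ± 0.08 and -0.16 ± 0.09 and for Ier2 -0.24 ± 0.17, -0.44 ± 0.14 and -0.13 ± 0.16. The median over the 8 genes was -0.32, -0.39 and -0.44, against -0.71, -0.56 and -0.66 without the block. The day 15 value of Btg2 was -0.58 without the block.

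On 4 slides, 6 Fe arrays shared a slide with a control. Against that control, Fe day 15 replicates 1 and 2 and Fe day 30 replicate 3 had all 8 genes lower, with medians of -0.45, -0.61 and -1.10. Fe day 5 replicate 4, Fe day 15 replicate 3 and Fe day 30 replicate 4 had 5, 4 and 7 of 8 lower, with medians of -0.36, -0.04 and -0.15. These were the 3 rats near control level for Arc. On slides without a control lay Fe day 5 replicates 1 to 3, Fe day 15 replicate 4 and Fe day 30 replicates 1 and 2. Their medians from the control means were -0.75, -0.90, -0.56, -1.15, -0.66 and -0.81. Rat and slide cannot be told apart here, and the part of slide in this split was not tested. Btg2 was lower in all 3 pairs of day 15 on a shared slide, by -0.75, -0.54 and -0.50.

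The variation between rats of one group was also described. The same Fe arrays served in choosing the genes, so this variation is not independent of that choice. After each group's mean was removed, 22 of the 28 pairs of genes correlated above 0 over the 16 arrays, with a median r of 0.43 (Pearson). Dusp6 and Rasl11b had the highest at 0.91, Arc had 0.86 with Dusp6, 0.81 with Trib1, 0.79 with Rasl11b and 0.71 with Dusp5, and Dusp5 had 0.84 with Dusp6. Btg2 had 0.07 with Arc, -0.08 with Rasl11b and 0.38 with Ier2, and Ier2 had 0.25 with Arc and -0.03 with Dusp6. Rats high in Arc for their group were thus mostly high in both ERK phosphatases, Rasl11b, Trib1 and Gadd45b, and the values of Btg2 and Ier2 were less like it. The points share array, slide and dissection, and these values are descriptions with no test.

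**Figure D3:**
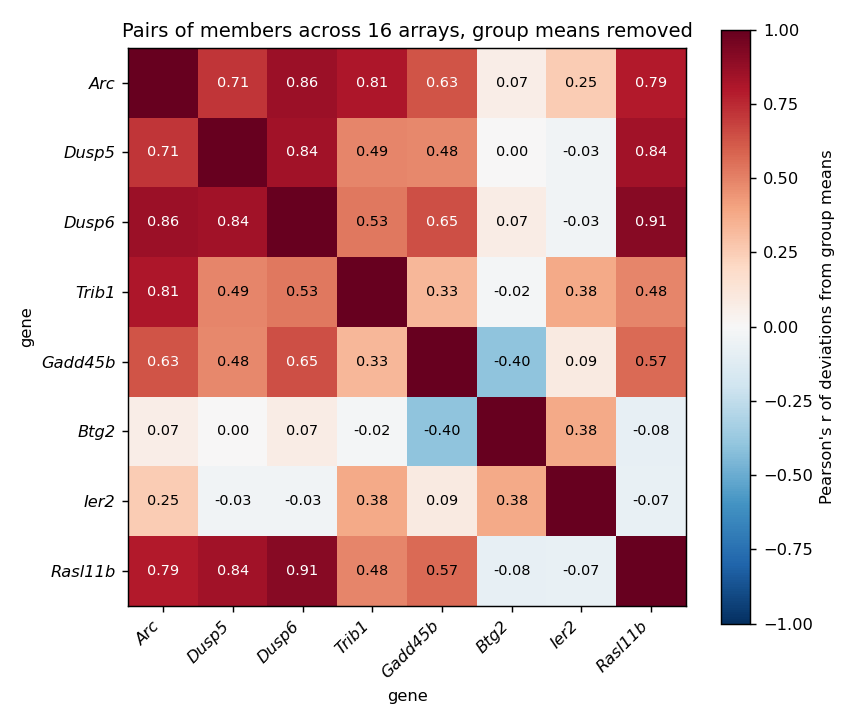
Pearson's r between each pair of the 8 genes over 16 arrays after removal of the group means, on a colour scale from -1 to 1. Arc, Dusp5, Dusp6 and Rasl11b form a block at 0.71 to 0.91, whereas the rows of Btg2 and Ier2 lie between -0.40 and 0.38.

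Among the 9580 other genes with a symbol, the 5 whose log2 signal followed Arc most closely over the 16 arrays were Arhgap12 (r = 0.97), Plk2 (0.96), Atcay (0.94), Kcnh7 (0.94) and Lsm7 (0.94). Plk2 is itself an activity-induced kinase of synapses, Atcay encodes the brain protein caytaxin and Kcnh7 a potassium channel. With group means removed the same 5 genes stood at 0.91 to 0.96, and without the 3 rats set apart above at 0.92 to 0.96. Of the members, Trib1 (0.88) and Dusp6 (0.88) followed Arc best, with 72 and 95 other genes above them. The 5 genes closest to the median of the 8 members were Galnt18 (0.95), Cx3cl1 (0.94), Arhgap12 (0.94), Atcay (0.94) and the immediate early receptor gene Nr4a1 (0.94).

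Markers of several cell types correlated with the 8 genes over the rats. In bulk tissue, fewer cells of a type and less RNA per cell cannot be told apart. The rats with the lowest median over the 8 genes, Fe day 15 replicate 4 (-1.15), Fe day 30 replicate 3 (-1.07) and Fe day 5 replicate 2 (-0.90), had CA1 and subiculum scores of -0.72, -1.01 and -1.06, the median log2 difference of 5 measured of 7 listed markers from their control means. The rats near control level, Fe day 5 replicate 4 (-0.09), Fe day 15 replicate 3 (-0.10) and Fe day 30 replicate 4 (-0.24), had CA1 scores of 0.08, -0.16 and 0.07. Fe day 15 replicate 2 went another way, with all 8 genes below the controls (-0.66) and a CA1 score of 0.06. Controls lay between -0.11 and 0.11 for the 8 genes and between -0.05 and 0.20 for CA1.

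The CA1 marker Wfs1 had 0.82, -0.68, 2.23 and 2.10 at Fe day 5, 2.37, 2.05, 2.80 and 1.62 at Fe day 15 and 1.49, 0.92, 0.48 and 2.99 at Fe day 30, against 3.21, 3.18, 2.92 and 2.51 in controls. Over the 16 arrays the median of the 8 genes and the CA1 score correlated at r = 0.81 (Spearman's rho 0.77), at 0.78 with group means removed and at 0.83 without the 3 arrays. The summed CA1 level, in percent of the 75th percentile of the array, was 437 to 1529 at Fe day 5, 650 to 1445 at Fe day 15 and 489 to 1605 at Fe day 30, against 1270 to 1704 in controls. For the 5 measured dentate granule markers r was 0.59, for the 5 of CA3 0.03 and for the 9 pan-neuronal markers 0.34, and the pan-neuronal scores stayed between -0.21 and 0.10 in all rats.

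Meninges and fibroblast markers, 10 of 10 measured, ran the other way, at r = -0.61 (rho -0.76) over 16 arrays and -0.81 without the 3 arrays. Their summed level was 1009 to 18822 at Fe day 5, 1001 to 1906 at Fe day 15 and 942 to 15314 at Fe day 30, against 916 to 1095 in controls. For choroid plexus (7 of 11 measured) r was -0.54, and the summed level was 899 to 3896, 629 to 885 and 491 to 32180 at days 5, 15 and 30, against 505 to 693 in controls. Microglia and macrophage markers (9 of 9) had r = -0.66, and -0.80 with group means removed. Their score was 1.07 in Fe day 15 replicate 4 and 0.89 in Fe day 30 replicate 3, against -0.06 to 0.08 in controls, and their summed level was 3693 to 4257, 3207 to 7414 and 2671 to 6600 at days 5, 15 and 30, against 3427 to 3695 in controls. Pericyte and smooth muscle markers (6 of 8) had r = -0.59 and blood markers (6 of 7) r = -0.56. Oligodendrocyte markers (8 of 9) had r = 0.34, and 0.68 with group means removed. For endothelium (9 of 9) these values were -0.48 and -0.44, and for astrocytes (7 of 8) -0.15 and -0.26. All 10 meninges markers and 5 of the 7 choroid plexus markers were well above background on every array, and the part of these lists in the values of the 8 genes was not tested.

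**Figure D4:**
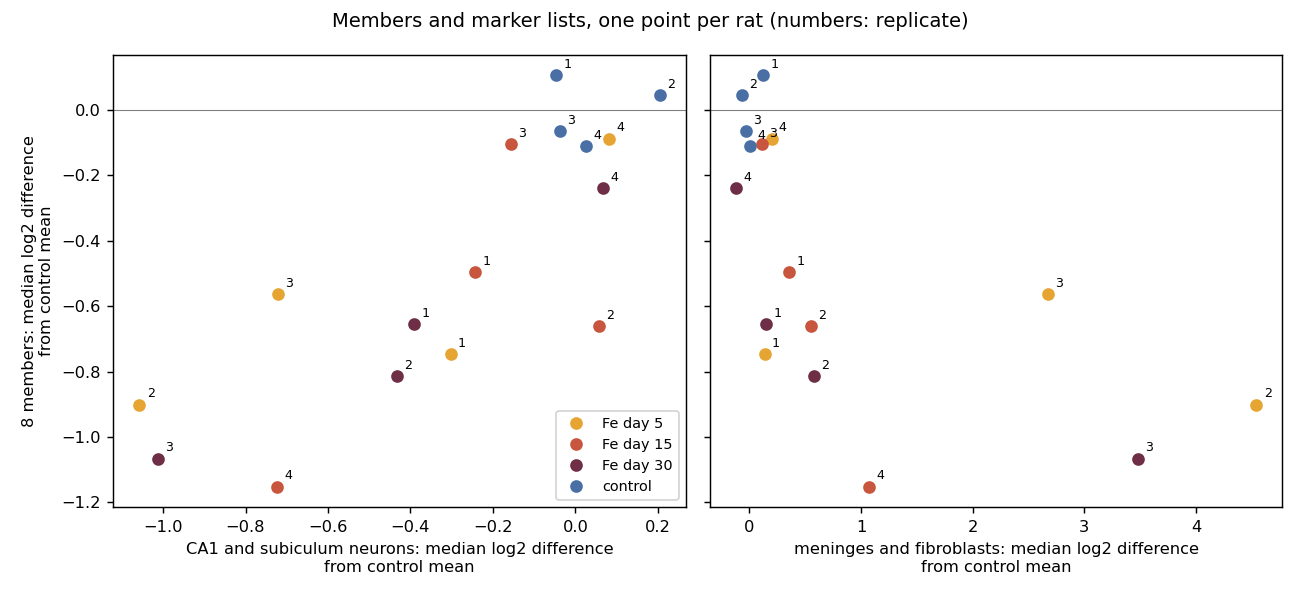
Median log2 difference of the 8 genes from their control means (vertical axis) against the same score of CA1 and subiculum markers (left) and of meninges and fibroblast markers (right), one point per rat, with the replicate number beside it. The 3 Fe rats near control level sit beside the controls in both panels, and Fe day 15 replicate 4, Fe day 30 replicate 3 and Fe day 5 replicate 2 are low at the left and lie at 1.07, 3.48 and 4.54 at the right.

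The wider pathway was read from lists of genes other than the 8. Of all 27889 features, 1768, 1805 and 1331 were lower at an unadjusted p under 0.05 in limma at days 5, 15 and 30. In the other direction there were 1116, 1426 and 853. The list counts at an unadjusted p stand beside these totals and are not read as results about a list. Of the other MAP kinase phosphatases, 7 of 9 were measured and limma called 0 at an adjusted p under 0.05 at each day, and 0 at an unadjusted p under 0.05. Their median difference was -0.15, -0.15 and -0.11 at days 5, 15 and 30. Dusp4, the inducible nuclear phosphatase closest in role to Dusp5, stood at -0.42, -0.42 and -0.36 ± 0.29, and Dusp1, the immediate early phosphatase of p38 and JNK, at 0.13, -0.27 and 0.06 ± 0.14. The 4 rats of Fe day 15 lay below all controls for Dusp1 and for Dusp14 (-0.15 ± 0.11), as they did for 5.80% of all features.

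The other brakes on Ras and ERK, such as Sprouty, Spred and Ras GTPase-activating proteins, gave 14 of 19 measured genes and medians of -0.02, 0.04 and -0.03. Limma called 0 of them at each day, with 4, 1 and 0 at an unadjusted p under 0.05. Spry2, an ERK-induced inhibitor, stood at -0.35, -0.39 and -0.24 ± 0.16. Rasa1 stood at 0.19 ± 0.06 at day 5 and Socs2 at 0.34 ± 0.14.

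Of the ERK cascade and its nuclear targets 17 of 28 were measured, with medians of -0.17, -0.09 and -0.10, and limma called 0 at each day, with 7, 2 and 1 at an unadjusted p under 0.05. The ERK kinase gene Mapk3 stood at 0.05, -0.06 and 0.09 ± 0.14. Rasgrp1, an activator of Ras, stood at -0.66, -0.56 and -0.56 ± 0.27, with the Fe rats below all controls at each day. The shares of all features with this separation were 5.11%, 5.80% and 3.68% at days 5, 15 and 30, each day taken singly. Crtc1, a coactivator of CREB, stood at -0.45, -0.32 and -0.17 ± 0.12, Creb1 at 0.00, 0.32 and 0.12 ± 0.09, and Elk1, a partner of SRF, at -0.30, 0.00 and -0.11 ± 0.09.

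Partners of Arc at the synapse gave 13 of 17 measured, 12, 10 and 12 of them below control, with medians of -0.24, -0.24 and -0.20. Limma called 0 at each day, with 5, 3 and 4 at an unadjusted p under 0.05. Dlg4, the scaffold PSD-95, stood at -0.38, -0.35 and -0.37 ± 0.14, with no overlap with the controls at any day. The shares of all features with this separation, each day taken singly, were 5.11%, 5.80% and 3.68%. The AMPA receptor subunit Gria1 stood at -0.43, -0.38 and -0.46 ± 0.17. Sh3gl3, an endophilin through which Arc acts on receptor uptake, stood at 0.30, 0.14 and 0.22 ± 0.09.

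A list of relatives of the 8 genes had 14 of 17 measured, with 9, 9 and 8 below control and medians of -0.04, -0.09 and -0.07. It also held Ier3, which shares a name with Ier2 but is not of its family. Limma called 0 at each day, with 3, 0 and 1 at an unadjusted p under 0.05. Beside Trib1, Trib2 stood at 0.00, -0.12 and -0.23 ± 0.13 and Trib3 at 0.82, 0.72 and 0.75 ± 0.43. Beside Gadd45b, Gadd45a stood at -0.01, 0.17 and 0.01 ± 0.24 and Gadd45g at -0.25, -0.04 and -0.16 ± 0.18.

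Beside Btg2, Btg1 stood at -0.08, -0.09 and 0.04 ± 0.08 and Btg3 at -0.05, -0.13 and -0.03 ± 0.09. Beside Ier2, Ier5 stood at -0.47, -0.33 and -0.58 ± 0.26 and Ier5l at 0.29, 0.42 and -0.11 ± 0.20. Ier3, alike in name alone, stood at 0.89, 0.19 and 0.55 ± 0.34. Btg2 recruits the CCR4-NOT complex, whose genes were listed together with Pabpc1, a poly(A)-binding protein outside the complex. This list had 9 of 12 measured, medians of -0.03, -0.04 and -0.05 and 0 at an unadjusted p under 0.05 at each day in limma. Among partners of Trib1, 6 of 7 measured, Cebpb stood at -0.85, -0.32 and -0.44 ± 0.35 and Cebpd at -0.65, -0.33 and -0.43 ± 0.25, and limma called 0, with 2, 0 and 0 at an unadjusted p under 0.05. Of the Gadd45 partners 6 of 10 were measured, with medians of -0.11, 0.01 and 0.01, and limma called 0, with 0, 1 and 0 at an unadjusted p under 0.05.

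Immediate early transcription factors, 14 of 16 measured, had medians of -0.26, -0.41 and -0.52, and limma called 0 at each day, with 4, 6 and 7 at an unadjusted p under 0.05. Earlier results of these data had shown this list to be low, so it is no independent evidence. Of its genes Nr4a3 (-0.22, -0.70 and -0.52 ± 0.15) had its lowest mean at day 15, while Egr2 (-0.87, -1.01 and -1.51 ± 0.34) and Egr4 (-0.58, -0.78 and -0.86 ± 0.21) had theirs at day 30.

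**Figure D5:**
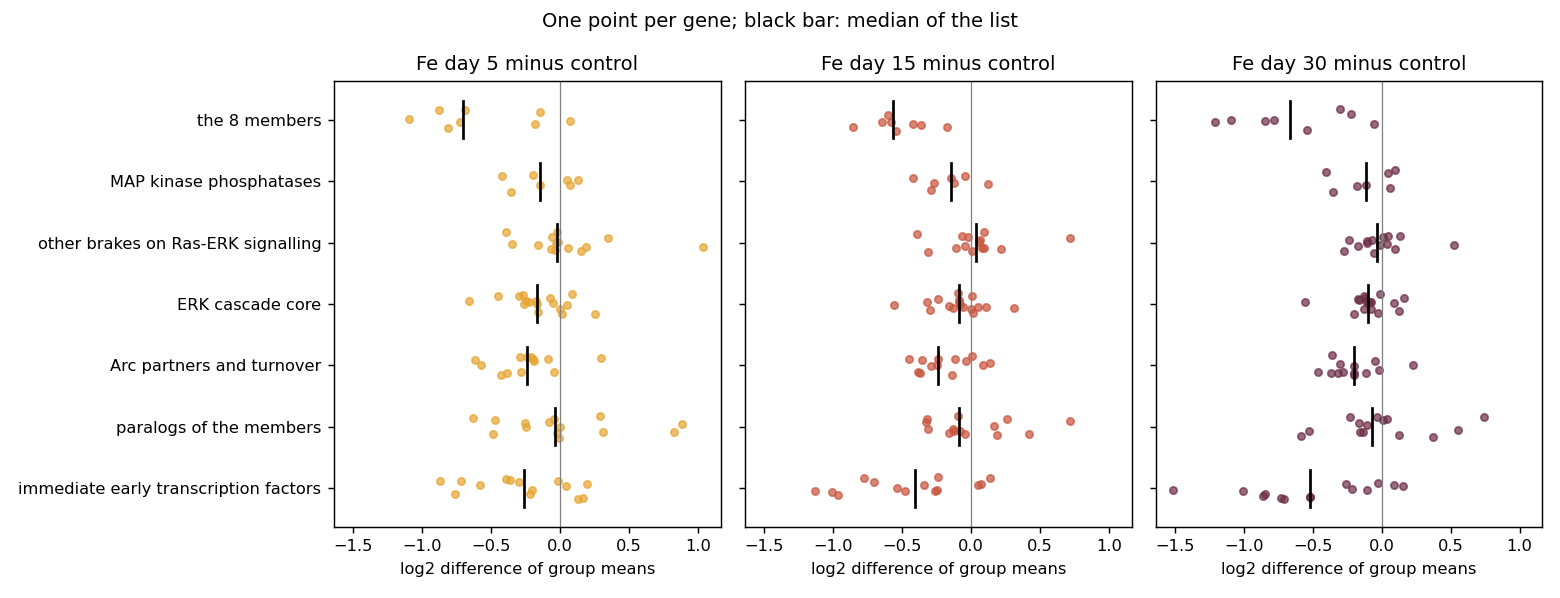
Log2 difference of group means (horizontal axis) for each gene of the 8 members and of 6 pathway lists at Fe day 5, Fe day 15 and Fe day 30 minus control, one point per gene, with the median as a black bar. The medians of the 8 genes lie at -0.71, -0.56 and -0.66, and those of the immediate early transcription factors at -0.26, -0.41 and -0.52. Those of the phosphatases, other brakes, cascade, Arc partners and relatives lie between -0.24 and 0.04.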

How the data were processed

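RNA of 16 hippocampi was labelled with Cy3, per the labels' protocols, and read with Agilent Feature Extraction 9.5, per the submitters' processing notes. The deposited values are intensities on a linear scale: per the file headers, a processed signal, and the median intensity of spot and local background, used only in an alternative. The deposited series table equalled the processed signal in 100% of entries at a relative tolerance of 1e-06.

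Control and outlier spots were left out, spots of a probe averaged as log2 signal, and the 75th percentile of each array subtracted. Probes well above background on all arrays of 1 group were kept. Symbols came from RefSeq (GRCr8), which matched 15184 of 20378 probes with a RefSeq accession, and coordinates are printed for promoters alone. A one-way model of all 16 arrays was run in limma 3.58.1 (R 4.3.3, 12 residual degrees of freedom, two-sided, Benjamini-Hochberg over 27889 features), after a test on simulated data. The number of arrays limits the precision, and the median SE of a difference was 0.13. Alternatives were quantile or median scaling, normexp, 2 other filters, array weights, 2-group fits, slide and replicate blocks, and arrays left out. Genes and lists were chosen with earlier results of these data known. All 8 members were named, with up to 3 genes of lowest p per list (some are not reported here), relatives of the members and the 5 genes most like Arc or the members' median. Spry2, Dusp4, Mapk3, Rasgrp1 and Wfs1 were named after their values were seen. The replicate numbers were not used as pairs in the main fit. Of 24 same-numbered pairs 5 had deviations correlated above 0.1 (range -0.41 to 0.39). Differently numbered pairs were not compared, so this does not settle whether the numbers pair the rats.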

Additional observations from a re-analysis of the deposited data

How the results depend on the processing

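The direction of a member's difference from control was kept in 260 of 264 values under other settings and in 382 of 384 values with 1 rat left out. The exceptions at day 5 were Btg2 (-0.20 with slide as a block) and Gadd45b (0.03 with slide as a block). The others were all Btg2 at day 30, at 0.10 without the 3 rats set apart by choroid plexus or meningeal genes. Btg2 at day 30 was also 0.10 without Fe day 30 replicate 3 alone, 0.08 with array weights and just above 0 without Fe day 30 replicate 4. The median over the 8 genes at day 5 was -0.32 with slide as a block. With 1 rat left out it ran from -0.80 to -0.63 at day 5, from -0.63 to -0.42 at day 15 and from -0.86 to -0.52 at day 30. Features called at day 30 numbered 8 with quantile scaling, 10 with median scaling, 25 with array weights and 0 with normexp, with 2 groups alone, with slide as a block or without the 3 arrays. At day 15 they numbered 183 with array weights, 2 of them in the pathway lists, 2 with 2 groups alone, and 1 without a filter, with the replicate block or without the 3 arrays. The replicate block left the median over the 8 genes at -0.71, -0.56 and -0.66. At day 5 there was 1 without a filter, between day 15 and day 5 there were 2 with array weights, and between day 30 and day 5 there was 1 with 2 groups alone. With 1 rat left out the counts ran from 0 to 10 at day 30 (10 without Fe day 5 replicate 4), from 0 to 9 at day 15 (9 without Fe day 15 replicate 4) and from 0 to 13 for day 15 against day 5 (13 without Fe day 15 replicate 4). The causes were not tested. A signal near background limits Trib1 most, and at day 30 it stood at -0.64 with normexp.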
